A study of Arabidopsis thaliana with 16 samples.

Results

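The transcripts described here are those of the 26S proteasome of Arabidopsis thaliana: 52 loci for the subunits of its core and regulatory particle, out of 27826 loci with a probe set on the arrays. They were taken by locus code from a list of the known subunits, a rule that uses no measured value, although the list was drawn up with earlier results of these data known. All 52 were found, and each has 1 probe set. They comprise 13 loci of alpha subunits and 11 of beta subunits of the 20S core particle, and 28 of the 19S regulatory particle, of which 10 encode ATPases (RPT) and 18 encode non-ATPase subunits (RPN), 6 counted here with the base and 12 with the lid. For 38 loci the reference gene table gives a subunit symbol. The other 14 have none, so they are called by the table's name or locus code, and their class and paralogue follow the list.

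The 26S proteasome degrades proteins that carry ubiquitin chains. Its 20S core is a barrel of stacked rings in which alpha subunits form the outer rings and the gate, and beta subunits form the inner rings that hold the proteolytic sites. The 19S particle caps the barrel: its base holds a ring of ATPases that unfold substrates and thread them into the core, together with subunits that bind ubiquitin, and its lid removes ubiquitin chains. In Arabidopsis most subunits are encoded by a pair of paralogous genes, and proteasome genes are known to be induced together when proteasome activity falls.

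Leaf RNA of soil-grown plants aged 6 weeks was measured on 16 Affymetrix arrays, 4 per genotype. The 3 mutant genotypes affect NatA, an N-terminal acetyltransferase complex that modifies nascent proteins at their amino terminus. They were amiNAA10, in which an artificial microRNA lowers the catalytic subunit NAA10, and 2 T-DNA lines of HYPK, a small NatA-binding protein, named after exon 1 and exon 2 in which the labels place the insertion. The sample titles call amiNAA10 a knockdown and both HYPK lines knockouts. The fourth genotype was the wild type (WT), and all plants grew untreated in short days of 8.5 h of light, with 22 °C in the light and 18 °C in the dark. Each mutation is represented by 1 line, and the labels name neither the promoter that drives the microRNA nor whether the 4 samples of a genotype are separate plants, pools or repeat preparations. The p-values thus reflect only how these samples vary, and that variation may be technical.

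Values are log2 expression values after robust multi-array averaging (RMA), and every difference is on that log2 scale, with its standard error (SE). A locus is called higher or lower where its limma p, adjusted over all 27826 probe sets, is under 0.05. Values of different probe sets are not compared as levels. NAA10 (AT5G13780) averaged 2.89 ± 0.16 in amiNAA10 and 4.96 ± 0.10 in WT (SD, n = 4 each). HYPK (AT3G06610) averaged 4.72 ± 0.14 in the exon 1 line, 5.40 ± 0.27 in the exon 2 line and 5.66 ± 0.08 in WT (SD, n = 4 each). The difference in the exon 1 line was called (-0.94, SE 0.13, adjusted p = 0.000155), while that in the exon 2 line was not (-0.26, SE 0.13, adjusted p = 0.191). The 7 leaf mesophyll markers were bright on every array, with a list mean per array from 9.22 to 9.52 in amiNAA10, from 9.64 to 9.95 over the HYPK arrays and from 9.96 to 10.12 in WT, and 5 of them were called lower in amiNAA10 and 4 in the HYPK lines. Flower and seed marker lists had array means of at most 2.04, near the bottom of the scale. Root markers had array means from 1.55 to 2.42 in amiNAA10 and from 1.46 to 1.63 in WT, and 1 of 4 was called higher there, PYK10 (1.86, SE 0.42, adjusted p = 0.00274). Vascular markers were called lower at 3 of 4 in amiNAA10 (median -1.02) and 2 of 4 in the HYPK lines (median -0.53). Guard and myrosin cell markers were called lower at 4 of 6 (median -0.73) and 5 of 6 (median -0.64) in these comparisons. Of 4 epidermis markers, 1 was called higher and 1 lower in amiNAA10, and 1 lower in the HYPK lines. Of 6 dividing cell markers, 1 was called higher in amiNAA10 and 1 lower in the HYPK lines, and 3 were lower in the HYPK lines than in amiNAA10. For 3 of the 6, the HYPK and WT means were both at the level of the dimmest 30% of probe sets. All 4 salicylic acid defence markers were called higher in both comparisons with WT. Of all probe sets, 15.4% were called in each direction in amiNAA10, and 11.2% higher and 11.5% lower in the HYPK lines. Between the HYPK lines and amiNAA10, 4.90% were called lower. In marker lists this short, a single call against WT is near those shares. In whole leaves, fewer cells of a type and less RNA per cell cannot be told apart, and the part of these shifts in the proteasome values was not tested.

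The median difference of the proteasome genes from WT was moderately positive in all 3 mutant lines, and the 19S particle accounted for most of the called loci. In the exon 2 line the mean over the 52 loci was 5.64, 5.55, 5.48 and 5.95 on its arrays. These overlapped the WT arrays, at 5.56, 5.48, 5.48 and 5.47. Without replicate 4 of the exon 2 line, 0 loci were called higher in that line. In amiNAA10, 12 of the 52 loci (23.1%) rose and 0 fell. Over all probe sets 15.4% were called higher and 15.4% lower in that comparison. The median difference of the 52 loci was 0.22, against -0.02 over all probe sets. Of the 52, 36 had a positive difference, beside 46.9% of all probe sets. With both HYPK lines averaged, 13 loci (25.0%) rose and 1 fell, where 11.2% and 11.5% of all probe sets were called higher and lower, and the median was 0.18 against -0.01. Here 41 of the 52 differences were positive, beside 47.7% of all probe sets. The loci share the same arrays, so such counts of loci are not independent observations. The 4 amiNAA10 arrays were all above the 4 WT arrays at 17 loci and all below at 1, where 15.4% and 15.3% of all probe sets were. The 8 HYPK arrays were all above WT at 9 loci and all below at 1, against 6.52% and 5.92%. Without replicate 4 of WT the number called higher in the HYPK lines was 8.

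Between the particles the counts were uneven. In amiNAA10 10 of the 28 19S loci rose, but 2 of the 24 core loci did, and the median difference was 0.29 for the 19S loci and 0.06 for the core loci. In the HYPK lines 12 of the 28 19S loci rose, with a median of 0.29, and among core loci 1 rose and 1 fell, with a median of 0.14. These core shares, 4.17% in each direction, were below the 11.2% and 11.5% of all probe sets called higher and lower. Lid loci moved most often: 6 of 12 rose in amiNAA10 and 7 of 12 in the HYPK lines. Of the 10 ATPase loci, 2 rose in amiNAA10 and 4 in the HYPK lines. Alpha and beta loci gave 1 call each in amiNAA10. The ATPase share in amiNAA10, 20%, was near the 15.4% of all probe sets called higher, and the alpha (7.69%) and beta (9.09%) shares were below it, while in the HYPK lines 40% of ATPase loci stood against 11.2%. The difference between the particles itself was not tested.

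The particles were also followed array by array. The mean over the 28 19S loci was 5.74, 5.96, 5.78 and 5.69 in amiNAA10, 5.68, 5.89, 5.88 and 5.66 in the exon 1 line, 5.76, 5.60, 5.58 and 6.00 in the exon 2 line, and 5.56, 5.50, 5.50 and 5.52 in WT. Every mutant array lay above every WT array in this mean. For the 24 core loci the means were 5.50, 5.66, 5.50 and 5.46 in amiNAA10, 5.45, 5.67, 5.72 and 5.45 in the exon 1 line, 5.49, 5.50, 5.36 and 5.89 in the exon 2 line, and 5.56, 5.46, 5.45 and 5.42 in WT. These core means overlapped between each mutant line and WT. Replicate 2 of amiNAA10 and replicate 4 of the exon 2 line were the highest arrays of their groups in both particles. Without replicate 2 the number of loci called higher in amiNAA10 fell to 6, and without both of these arrays it was 9.

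**Figure D1:**
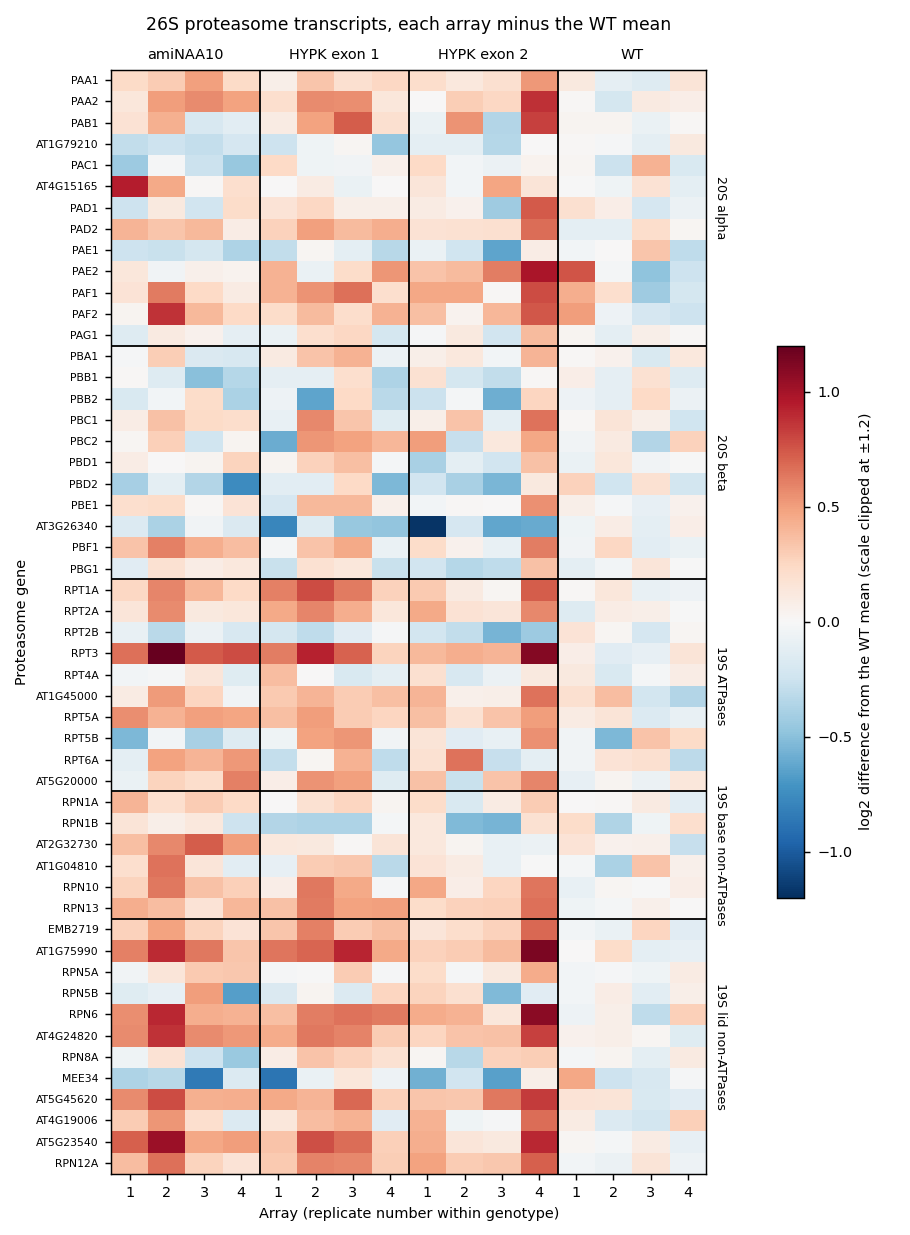
Difference of each array from the WT mean (log2, colour scale clipped at ±1.2) for the 52 proteasome loci, by class from top to bottom, with the 4 arrays of amiNAA10, the HYPK exon 1 line, the HYPK exon 2 line and WT from left to right. RPT3 and the lid block hold much of the red in the mutant arrays, and replicate 2 of amiNAA10 and replicate 4 of the exon 2 line are red across many loci.

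The 20S core was called at few loci. PAA1, an alpha-ring subunit, stood at 7.78, 7.86, 8.04 and 7.78 in amiNAA10, 7.62, 7.89, 7.74 and 7.80 in the exon 1 line, 7.76, 7.68, 7.74 and 8.07 in the exon 2 line, and 7.67, 7.44, 7.39 and 7.70 in WT. All 4 amiNAA10 arrays lay above all WT arrays, while both HYPK lines overlapped WT. The difference was 0.32 (SE 0.12, adjusted p = 0.0490) in amiNAA10 and 0.24 (adjusted p = 0.103) in the HYPK lines. The first of these calls sits at the threshold and was lost in 17 of 24 other settings of the fit, its adjusted p running up to 0.145. Here and below, the 24 settings include fits that leave out an array of a group outside the comparison. Such fits leave the difference unchanged, so counts of lost calls can understate how far a call depends on its own arrays.

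PAD2, another alpha-ring subunit, had 5.96, 5.88, 5.94 and 5.64 in amiNAA10, 5.83, 6.04, 5.93 and 5.98 in the exon 1 line, 5.73, 5.73, 5.74 and 6.22 in the exon 2 line, and 5.43, 5.43, 5.76 and 5.57 in WT. The exon 1 arrays were clear of WT, whereas a single high array raised the exon 2 mean. It was called higher in the HYPK lines (0.35, SE 0.11, adjusted p = 0.0302, lost in 4 of 24 settings), and its difference in amiNAA10 was 0.30 (adjusted p = 0.0830).

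Among beta subunits, PBF1, which has no proteolytic site, had 6.66, 6.92, 6.75 and 6.68 in amiNAA10, against 6.27, 6.56, 6.19 and 6.23 in WT. The amiNAA10 arrays were all higher than the WT arrays. It rose by 0.44 (SE 0.16, adjusted p = 0.0423) in amiNAA10, a call lost in 9 of 24 settings, against 0.19 (adjusted p = 0.365) in the HYPK lines.

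AT3G26340, listed with PBE1 as a beta-subunit locus, went the other way and was the only locus called lower in the HYPK lines. Its values were 3.87, 4.51, 4.20 and 4.18 in the exon 1 line, 3.48, 4.46, 4.03 and 4.05 in the exon 2 line, and 4.60, 4.74, 4.54 and 4.74 in WT. All 8 HYPK arrays lay below all 4 WT arrays. It fell by 0.56 (SE 0.15, a 0.679-fold value relative to WT, adjusted p = 0.0119), and this call was kept in all 24 settings tried. In amiNAA10 it had 4.50, 4.28, 4.61 and 4.48, which overlapped WT (-0.19, SE 0.17, adjusted p = 0.459).

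The other 20 core loci were called in neither comparison. Their differences ran from -0.41 (PBD2) to 0.42 (PAA2) in amiNAA10 and from -0.20 (PBD2) to 0.44 (PAF1) in the HYPK lines. PAA2 was higher on every amiNAA10 array than on any WT array without passing the adjusted threshold (adjusted p = 0.0680). AT4G15165, listed as the second gene of the PAC pair, averaged 1.56 over all arrays, below the level of 1.83 under which the dimmest 30% of probe sets lay, so its values say little.

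The ATPase ring of the base gave the largest single rise. RPT3, an ATPase encoded by 1 gene here, had 7.01, 7.71, 7.08 and 7.13 in amiNAA10, 6.96, 7.27, 7.05 and 6.61 in the exon 1 line, 6.74, 6.78, 6.75 and 7.45 in the exon 2 line, and 6.42, 6.21, 6.24 and 6.50 in WT. Every mutant array lay above every WT array. RPT3 rose by 0.88 in amiNAA10 (SE 0.19, 1.85-fold, adjusted p = 0.00165) and by 0.61 in the HYPK lines (SE 0.16, 1.52-fold, adjusted p = 0.0123). Both calls were kept in all 24 settings tried.

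RPT5A, which acts with its paralogue RPT5B in pollen development, had 7.59, 7.44, 7.52 and 7.50 in amiNAA10, 7.39, 7.53, 7.33 and 7.29 in the exon 1 line, 7.39, 7.21, 7.37 and 7.53 in the exon 2 line, and 7.13, 7.18, 6.87 and 6.94 in WT. It was likewise above WT on all 12 mutant arrays. It rose by 0.49 in amiNAA10 (SE 0.10, adjusted p = 0.00194) and by 0.35 in the HYPK lines (SE 0.09, adjusted p = 0.00990), and kept both calls in all 24 settings.

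RPT1A, another ATPase of the ring, had 6.71, 7.05, 6.86 and 6.70 in amiNAA10, 7.07, 7.25, 7.08 and 6.73 in the exon 1 line, 6.78, 6.57, 6.49 and 7.19 in the exon 2 line, and 6.48, 6.60, 6.37 and 6.40 in WT. The amiNAA10 and exon 1 arrays were above WT, and 2 exon 2 arrays fell within its range. It was called higher in the HYPK lines (0.43, SE 0.13, adjusted p = 0.0236, lost in 3 of 24 settings), but missed the threshold in amiNAA10 (0.37, adjusted p = 0.0734). The 8 HYPK arrays and the 4 amiNAA10 arrays differed by 0.06 (SE 0.13, adjusted p = 0.839), with a 95% interval of -0.21 to 0.34.

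RPT2A, known in Arabidopsis for its role in root and shoot meristems and organ size, had 5.26, 5.68, 5.23 and 5.24 in amiNAA10, 5.57, 5.69, 5.55 and 5.25 in the exon 1 line, 5.57, 5.29, 5.25 and 5.69 in the exon 2 line, and 4.95, 5.20, 5.18 and 5.11 in WT. All mutant arrays were above all WT arrays, some by a small margin. It was called higher in the HYPK lines (0.37, SE 0.12, adjusted p = 0.0320), a call lost in 6 of 24 settings, and not in amiNAA10 (0.24, adjusted p = 0.208). Its paralogue RPT2B had 4.78, 4.54, 4.80 and 4.68 in amiNAA10, 4.66, 4.57, 4.74 and 4.86 in the exon 1 line, 4.64, 4.57, 4.31 and 4.43 in the exon 2 line, and 5.03, 4.89, 4.67 and 4.89 in WT. The exon 2 arrays were all below WT, and the other lines overlapped it. RPT2B fell in the exon 2 line (-0.38, SE 0.11, adjusted p = 0.0331), a call lost in 8 of 24 settings, while its mean over both HYPK lines differed by -0.27 (adjusted p = 0.0539). The remaining 5 ATPase loci, RPT4A, AT1G45000, RPT5B, RPT6A and AT5G20000, were called in no comparison with WT.

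Of the 6 non-ATPase loci counted with the base, 2 rose in amiNAA10 (33.3%) and 1 in the HYPK lines (16.7%). Over all probe sets 15.4% and 11.2% were called higher. With so few loci, the HYPK count is near that share. RPN13, a ubiquitin receptor, had 6.33, 6.27, 6.06 and 6.30 in amiNAA10, 6.25, 6.52, 6.38 and 6.39 in the exon 1 line, 6.12, 6.18, 6.18 and 6.55 in the exon 2 line, and 5.85, 5.88, 5.96 and 5.91 in WT. The WT arrays were tightly grouped and below all mutant arrays. RPN13 rose by 0.42 in the HYPK lines (SE 0.10, adjusted p = 0.00453) and by 0.34 in amiNAA10 (SE 0.11, adjusted p = 0.0265), where the call was lost in 5 of 24 settings. Each of these 5 left out 1 array of amiNAA10 or WT. RPN10, the other ubiquitin receptor listed with the base, was above WT on every amiNAA10 array without being called (0.39, SE 0.15, adjusted p = 0.0638).

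AT2G32730, a non-ATPase locus of the base, was the 1 member called between the HYPK lines and amiNAA10. That is 1.92% of the 52 loci, below the 4.90% of all probe sets called lower in this comparison. It had 7.44, 7.66, 7.80 and 7.58 in amiNAA10, 7.21, 7.20, 7.09 and 7.23 in the exon 1 line, 7.21, 7.11, 6.99 and 7.01 in the exon 2 line, and 7.25, 7.13, 7.14 and 6.80 in WT. The amiNAA10 arrays were above every other array, and both HYPK lines overlapped WT. It rose by 0.54 in amiNAA10 (SE 0.11, 1.45-fold, adjusted p = 0.00152), and its HYPK mean was 0.05 above WT (SE 0.10, adjusted p = 0.765). The direct comparison of the HYPK lines with amiNAA10 gave -0.49 (SE 0.10, adjusted p = 0.00498). Its exact permutation p, 0.00202, is the smallest that 8 arrays against 4 can give. That p was not adjusted over the 52 loci. All 24 settings kept the calls against WT and between the mutants.

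The lid held the most calls, at 7 of its 12 loci. AT4G24820 had 7.67, 7.97, 7.67 and 7.62 in amiNAA10, 7.54, 7.74, 7.69 and 7.41 in the exon 1 line, 7.36, 7.45, 7.46 and 7.92 in the exon 2 line, and 7.15, 7.18, 7.12 and 6.96 in WT. All 12 mutant arrays were above WT. The rise was 0.63 in amiNAA10 (SE 0.13, 1.55-fold, adjusted p = 0.00143) and 0.47 in the HYPK lines (SE 0.11, adjusted p = 0.00682).

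AT5G45620 showed the same separation, with 4.94, 5.15, 4.80 and 4.81 in amiNAA10, 4.83, 4.78, 5.06 and 4.65 in the exon 1 line, 4.71, 4.70, 5.01 and 5.21 in the exon 2 line, and 4.54, 4.53, 4.19 and 4.24 in WT. It rose by 0.55 in amiNAA10 (SE 0.14, adjusted p = 0.00638) and by 0.50 in the HYPK lines (SE 0.12, adjusted p = 0.00762). Both lid loci kept both calls in all 24 settings.

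AT5G23540 had 7.65, 7.96, 7.39 and 7.43 in amiNAA10, 7.27, 7.70, 7.60 and 7.21 in the exon 1 line, 7.36, 7.07, 7.04 and 7.83 in the exon 2 line, and 6.95, 6.91, 7.02 and 6.83 in WT. No mutant array reached down to the WT range, although replicate 3 of the exon 2 line came close. It rose by 0.68 in amiNAA10 (SE 0.17, 1.60-fold, adjusted p = 0.00637) and by 0.46 in the HYPK lines (SE 0.15, adjusted p = 0.0358), where 7 of 24 settings lost the call.

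RPN12A, a lid subunit known in Arabidopsis for its part in cytokinin responses, had 7.50, 7.79, 7.40 and 7.29 in amiNAA10, 7.44, 7.72, 7.71 and 7.43 in the exon 1 line, 7.62, 7.44, 7.45 and 7.85 in the exon 2 line, and 7.10, 7.06, 7.29 and 7.07 in WT. The HYPK arrays were clear of WT, and the lowest amiNAA10 array nearly touched the highest WT array. It rose by 0.45 in the HYPK lines (SE 0.11, adjusted p = 0.00820, kept in all 24 settings) and by 0.36 in amiNAA10 (SE 0.13, adjusted p = 0.0420, lost in 9 of 24).

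The other lid calls were AT1G75990, RPN6 and EMB2719. AT1G75990 rose by 0.62 in amiNAA10 (SE 0.18, adjusted p = 0.0133, lost in 1 of 24 settings) and by 0.60 in the HYPK lines (SE 0.15, adjusted p = 0.00927). RPN6, whose yeast counterpart clamps the lid onto the core, rose by 0.58 in amiNAA10 (adjusted p = 0.0206) and by 0.54 in the HYPK lines (adjusted p = 0.0185), each call lost in 2 of 24 settings. EMB2719, a gene named for an embryo-defective phenotype, was called higher in the HYPK lines (0.36, SE 0.11, adjusted p = 0.0297, lost in 4 of 24 settings), and its difference was 0.30 in amiNAA10 (adjusted p = 0.103). The 5 lid loci without a call in either comparison ran from -0.43 (MEE34) to 0.22 (AT4G19006) in amiNAA10, and the same 5 from -0.28 (MEE34) to 0.23 (AT4G19006) in the HYPK lines.

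**Figure D2:**
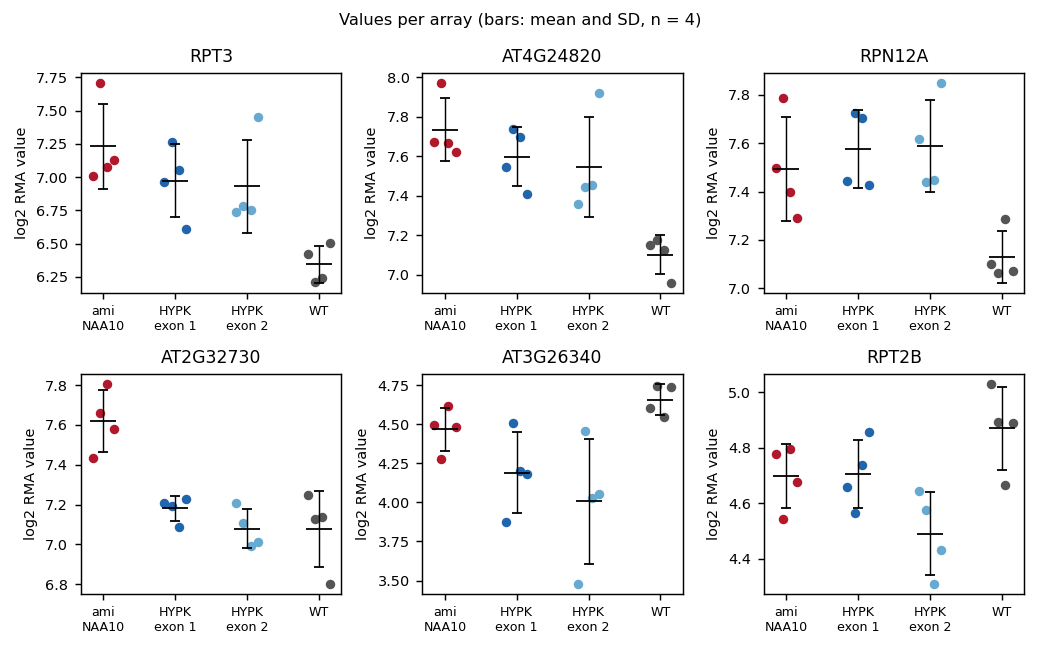
Log2 RMA values of 6 proteasome loci on each of the 16 arrays (points), with the mean and SD of each genotype (bars, n = 4). RPT3, AT4G24820 and RPN12A are above WT in all 3 mutant lines, and AT2G32730 in amiNAA10 alone. AT3G26340 is below WT in both HYPK lines, and RPT2B in the HYPK exon 2 line.

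**Figure D3:**
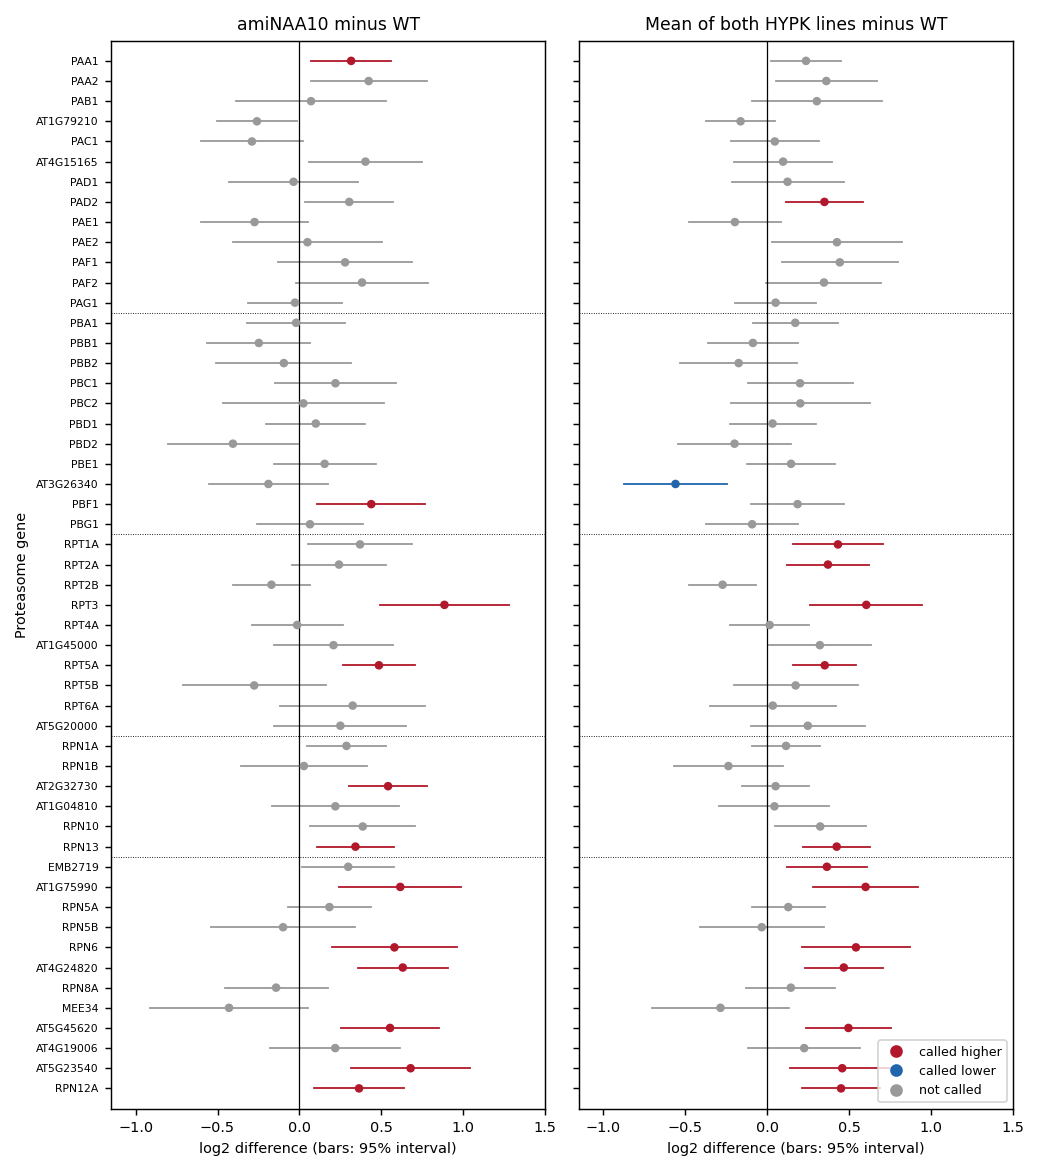
Fitted log2 difference from WT with its 95% interval for each of the 52 loci, in amiNAA10 (left) and in the mean of both HYPK lines (right), coloured by call at an adjusted p under 0.05. The lid holds the most calls in both panels, 6 and 7 of 12 loci, and AT3G26340 is the single locus called lower, in the HYPK lines.

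The loci called in amiNAA10 and in the HYPK lines are set against the same 4 WT arrays, so these lists are not independent of each other. In amiNAA10 the 12 were PAA1, PBF1, RPT3, RPT5A, AT2G32730, RPN13, RPN6, RPN12A, AT1G75990, AT4G24820, AT5G45620 and AT5G23540. In the HYPK lines the 13 that rose were PAD2, RPT1A, RPT2A, RPT3, RPT5A, RPN13, EMB2719, RPN6, RPN12A, AT1G75990, AT4G24820, AT5G45620 and AT5G23540. The direct comparison of the HYPK lines with amiNAA10 needs no WT array and called 0 loci higher and 1 lower, AT2G32730, where 5.34% and 4.90% of all probe sets were called. The differences between these mutants ran from -0.49 to 0.45, with a median of -0.00 over the 52 loci.

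Taken separately, the exon 1 line had 13 loci higher and 0 lower than WT, where 9.69% and 9.89% of all probe sets were called, and the median difference was 0.20. The largest were AT1G75990 at 0.68 (SE 0.18, adjusted p = 0.0125), RPT3 at 0.63 (SE 0.19, adjusted p = 0.0254) and RPT1A at 0.57 (SE 0.15, adjusted p = 0.0135). The lid gave 7 of these calls, the ATPases 4, and the base and the core 1 each. Without replicate 2 of the exon 1 line 3 loci were called, and without its replicate 3 there were 5. Leaving out 1 WT array gave 6 to 8.

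The exon 2 line had 6 loci higher and 2 lower than the same WT arrays, against 7.03% and 6.82% of all probe sets, with a median difference of 0.19. RPT3 rose by 0.58 in this line (SE 0.19, adjusted p = 0.0462), a call lost in 16 of 24 settings. The others that rose were AT5G45620 at 0.53 (SE 0.14, adjusted p = 0.0193), RPN12A at 0.46, AT4G24820 at 0.44, RPN13 at 0.36 and RPT5A at 0.35. Those that fell were AT3G26340 at -0.65 (SE 0.17, adjusted p = 0.0186) and RPT2B. The calls rest on few arrays: without replicate 4 of the exon 2 line 0 loci were called higher and 1 lower, without its replicate 3 there were 3 and 1, and leaving out 1 WT array gave 1 to 3 higher.

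The insertion lines compared directly with each other, the exon 1 line minus the exon 2 line, gave 0 calls in either direction with limma, where 0% of all probe sets were called higher and 0.00719% lower. Of the 52 loci 0 had an unadjusted p under 0.05, and their differences ran from -0.31 to 0.28. The smallest p was that of RPT2B, whose difference of 0.21 had a 95% interval of -0.02 to 0.45. In total 18 loci were called in at least 1 comparison of a line, or of the HYPK mean, with WT, and 34 in none.

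The list holds 20 pairs of paralogues, 40 loci in all, and 12 subunits with 1 locus. For each pair the per-array difference between both genes was compared between groups by a two-sided exact permutation test, adjusted over the 20 pairs, which asks whether the genes of a pair moved unequally. Probes of near-identical paralogues can pick up each other's transcript, and this was not tested. In amiNAA10, 0 pairs passed. With 4 arrays against 4 the smallest p is 0.0286, which could pass only if at least 12 pairs reached it, and 2 pairs did: PAB1 with AT1G79210 and PAC1 with the dim AT4G15165.

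In the HYPK lines 2 pairs passed. PBE1, the subunit with the chymotrypsin-like proteolytic site, and AT3G26340 diverged. PBE1 had 5.11, 5.70, 5.70 and 5.37 in the exon 1 line, 5.28, 5.32, 5.31 and 5.85 in the exon 2 line, and 5.38, 5.29, 5.21 and 5.36 in WT, so it overlapped WT while AT3G26340 lay below it. The change of PBE1 exceeded that of AT3G26340 by 0.71 (SE 0.12, exact permutation p = 0.00404, adjusted p = 0.0404), with changes of 0.15 and -0.56. In the second pair, RPT2A and RPT2B, the changes were 0.37 and -0.27, a divergence of 0.64 (SE 0.15, exact permutation p = 0.00404, adjusted p = 0.0404). The per-array difference of RPT2A minus RPT2B was lowest in WT, but its WT range reached 0.51 and the lowest HYPK array was at 0.39. Leaving out any 1 array of these groups left 0 pairs past the adjusted threshold, which fewer arrays make harder to reach.

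Between the mutants 1 pair passed, RPT5A with RPT5B. RPT5B had 4.08, 4.61, 4.67 and 4.09 in the exon 1 line, 4.29, 3.99, 4.04 and 4.68 in the exon 2 line, 3.60, 4.10, 3.75 and 3.98 in amiNAA10, and 4.09, 3.60, 4.48 and 4.37 in WT. RPT5A was lower and RPT5B higher in the HYPK lines than in amiNAA10 by means that were not called on their own (-0.13 and 0.45), and together they diverged by -0.58 (SE 0.17, exact permutation p = 0.00202, adjusted p = 0.0404). Leaving out 1 array gave between 0 and 2 pairs. Genes of a pair had opposite signs of difference from WT in 10 pairs in amiNAA10 and in 8 in the HYPK lines, and the only pair in which both were called was EMB2719 with AT1G75990, in the HYPK lines.

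**Figure D4:**
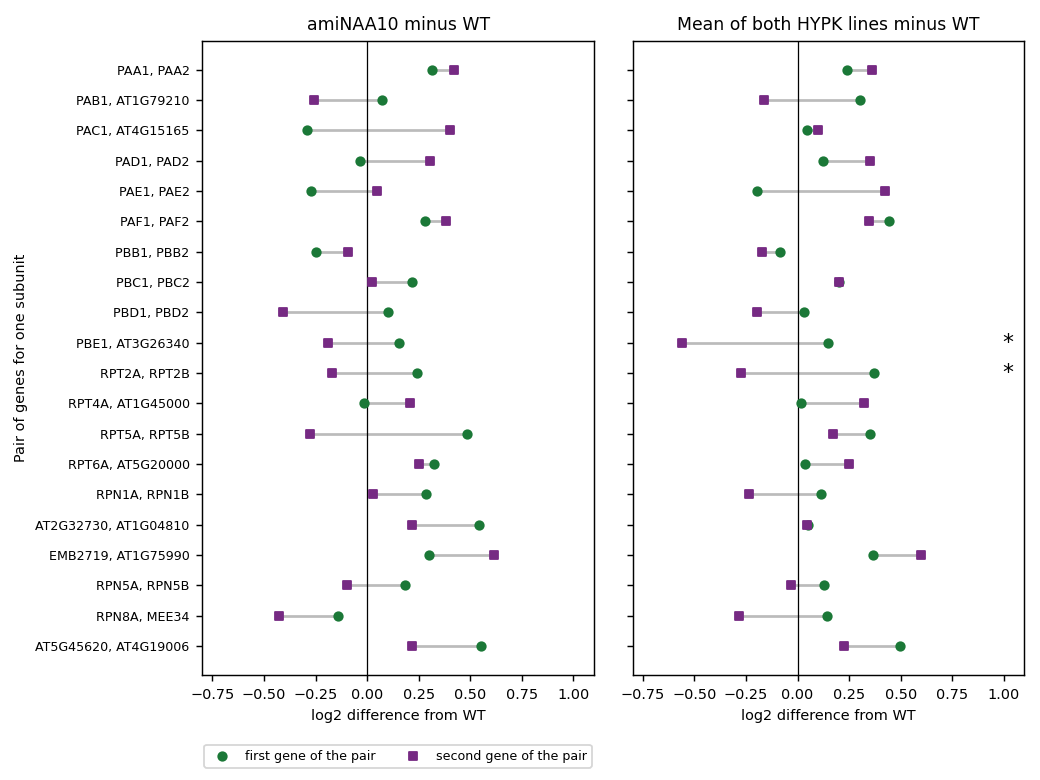
Log2 difference from WT of the first gene (circle) and the second gene (square) of 20 paralogue pairs, in amiNAA10 (left) and in the mean of both HYPK lines (right). Asterisks mark the 2 pairs whose genes moved unequally at an adjusted exact permutation p under 0.05, PBE1 with AT3G26340 and RPT2A with RPT2B, both in the HYPK lines.

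Genes that act around the proteasome were followed in 6 further lists, whose counts are to be read against the 15.4% of all probe sets called in each direction in amiNAA10 and the 11.2% higher and 11.5% lower in the HYPK lines. Among 7 minor isoforms and accessory subunits, 4 rose and 0 fell in amiNAA10, and likewise in the HYPK lines. The largest was PA200, a proteasome activator that caps the core in place of the 19S particle. PA200 had 8.17, 8.81, 8.19 and 8.04 in amiNAA10, 7.63, 8.30, 8.53 and 7.76 in the exon 1 line, 7.53, 7.58, 7.69 and 8.47 in the exon 2 line, and 6.88, 6.89, 6.99 and 7.07 in WT. All mutant arrays were well above the narrow WT range. It rose by 1.34 in amiNAA10 (SE 0.23, 2.54-fold, adjusted p = 0.000292) and by 0.98 in the HYPK lines (SE 0.20, 1.97-fold, adjusted p = 0.00204). AT1G53780, DSS1(I) and AT2G26780 also rose in both, by 0.85, 0.45 and 0.33 in amiNAA10 and by 0.63, 0.37 and 0.39 in the HYPK lines.

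Of 8 loci listed as proteasome assembly chaperones, 2 rose and 1 fell in amiNAA10, and 3 rose in the HYPK lines. With so few loci, the amiNAA10 counts are near the shares over all probe sets. AT3G15180 rose in both (0.67 and 0.58), and AT5G14710 fell in amiNAA10 (-0.53, SE 0.14, adjusted p = 0.00650). Among 4 deubiquitylases that work with the proteasome, 1 rose in the HYPK lines and 0 in amiNAA10, and 0 fell in either. In a list this short, a single call is near the share over all probe sets. The 1 that rose was UBP6, which trims ubiquitin chains at the 19S base. Its difference was 0.44 in the HYPK lines (SE 0.11, adjusted p = 0.00856) and 0.04 in amiNAA10 (adjusted p = 0.844). UBP6 was also higher in the HYPK lines than in amiNAA10 (0.39, SE 0.11, adjusted p = 0.0301).

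The shuttle factors and CDC48 genes deliver ubiquitylated proteins to the proteasome. Of the 12 reported, 7 rose in amiNAA10 and 5 in the HYPK lines. CDC48A, which extracts ubiquitylated proteins from membranes and complexes, rose by 0.87 in amiNAA10 (SE 0.19, adjusted p = 0.00243) and by 0.60 in the HYPK lines (SE 0.17, adjusted p = 0.0149). The largest difference of the list was that of AtCDC48B, named after its values were seen, at 1.31 in amiNAA10 (SE 0.45, adjusted p = 0.0349) and 0.72 in the HYPK lines (adjusted p = 0.207). Its values were 3.13, 4.90, 3.67 and 2.83 in amiNAA10 and 2.45, 2.62, 1.96 and 2.25 in WT, with replicate 2 of amiNAA10 far above the rest. AtCDC48C rose by 0.86 and 0.77, DDI1 by 0.70 and 0.63, and AT2G47970 by 0.56 and 0.56.

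NAC053 and NAC2 are transcription factors known in Arabidopsis to activate proteasome genes under proteasome stress. NAC053 had 5.60, 6.19, 5.78 and 5.68 in amiNAA10, 5.35, 6.11, 5.88 and 5.83 in the exon 1 line, 5.57, 5.66, 5.44 and 6.20 in the exon 2 line, and 4.70, 4.49, 4.69 and 5.27 in WT. Every mutant array was above WT. It rose by 1.03 in amiNAA10 (SE 0.20, 2.04-fold, adjusted p = 0.00107) and by 0.97 in the HYPK lines (SE 0.18, 1.95-fold, adjusted p = 0.00105). NAC2 differed by 0.25 (adjusted p = 0.177) and 0.33 (adjusted p = 0.0507) without being called.

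The COP9 signalosome is a complex related in structure to the lid that regulates ubiquitin ligases. Of its 10 loci, 3 rose in amiNAA10 and 2 in the HYPK lines, and 0 fell, beside 15.4% and 11.2% called higher among all probe sets. CSN8 rose by 0.99 in amiNAA10 (SE 0.20, adjusted p = 0.00140) and by 0.70 in the HYPK lines (SE 0.18, adjusted p = 0.00909), and CSN3 by 0.55 and 0.43. Of 8 heat shock markers, 1 rose in each comparison, HSP90.1. Their list mean was 4.05 on replicate 2 of amiNAA10, against 2.65 to 3.24 on the other amiNAA10 arrays, 2.68 to 3.09 in the exon 1 line, 2.61 to 3.29 in the exon 2 line and 2.60 to 2.79 in WT, and the part of this in the higher proteasome values of that array was not tested.

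**Figure D5:**
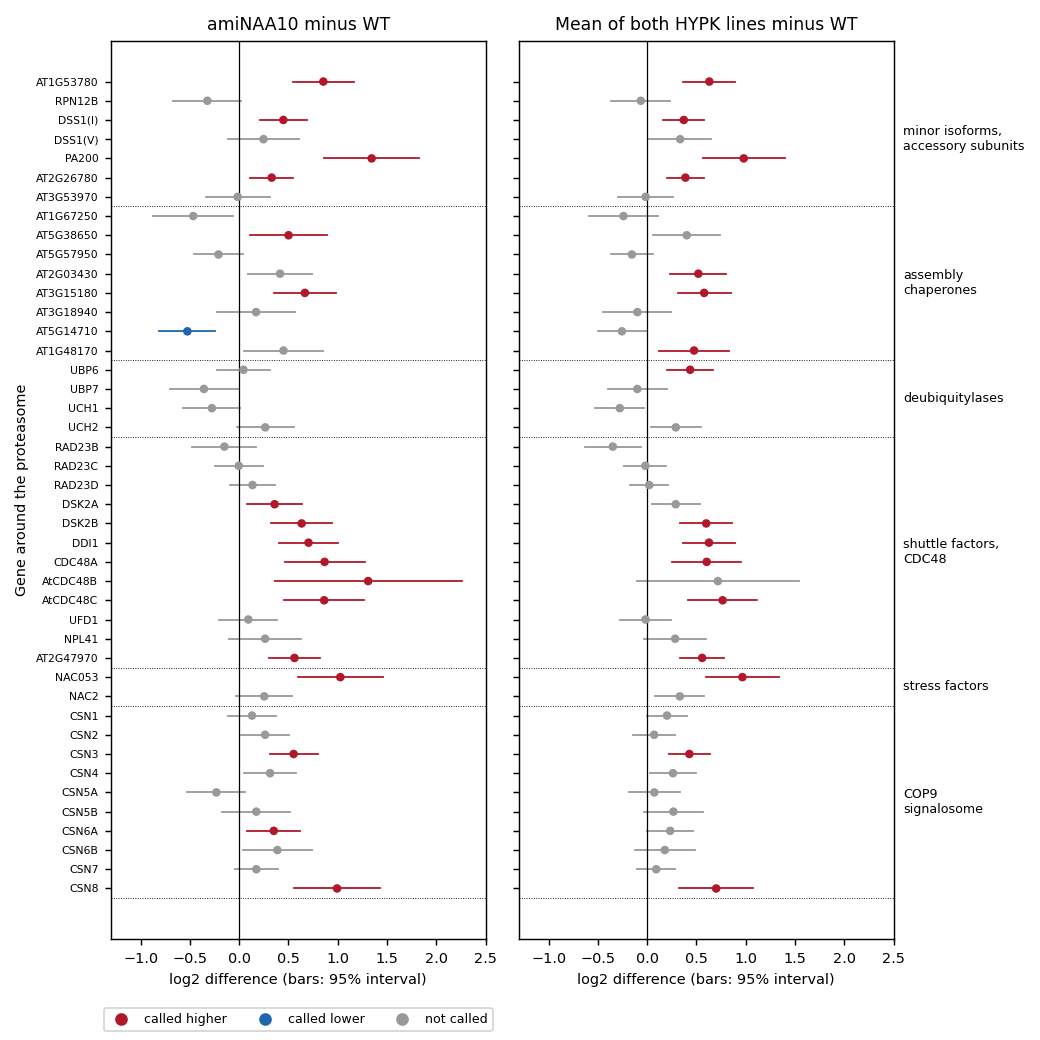
Fitted log2 difference from WT with its 95% interval for the loci of 6 lists around the proteasome, in amiNAA10 (left) and in the mean of both HYPK lines (right), coloured by call at an adjusted p under 0.05. PA200, NAC053, CSN8, AtCDC48B and AtCDC48C are among the loci farthest to the right in both panels, and AT5G14710 is called lower in amiNAA10.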

How the data were processed

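Per the submitters' processing notes, the authors processed the arrays with RMA; the deposited table holds 1 log2 value per locus and array, and the annotation used is not given in the sources used here. Sorted columns differed by at most 0.0019, so a shift common to most transcripts of a genotype would not be seen. The table has no detection call, and the number of arrays limits the precision.

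Groups came from sample titles. A single linear model with a term per genotype was fitted to the 16 arrays in limma 3.58.1 (R 4.3.3; lmFit, eBayes), two-sided, with 6 contrasts and Benjamini-Hochberg adjustment over 27826 probe sets at 0.05. Paralogue pairs were compared by exact permutation tests. The fit was tested on simulated data.

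The members, gene lists and tests were chosen with earlier results of these data known. Members named with every array were up to 4 per class with the smallest adjusted p under 0.05, and every member of a pair past its test; from each further list, up to 4 loci by p. Alternatives were the intensity trend, robust fitting, leaving out the dimmest 30% of probe sets, only the groups compared, a replicate block, centring on the brighter probe sets, array weights and leaving out each array. Symbols came from a RefSeq table (TAIR10.1), which held 27241 of the loci. No sequence was used here. A single locus of the list of shuttle factors and CDC48 genes is not reported here and is left out of its counts.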

Additional observations from a re-analysis of the deposited data

Results flagged for a closer look

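In 212 sets of 4 arrays of 1 genotype, 1 per locus or locus mean, the highest or lowest array was tested for standing apart from the other 3. Chance gives about 1 in 20, only a guide because loci on 1 array are not independent. The sets that stood apart numbered 19, of which chance at that rate would give many. Replicate 4 of the exon 2 line accounted for 6 of the 19, all high: RPT3 at 7.45 (others 6.74 to 6.78), AT1G75990 at 6.23 (5.38 to 5.48), PAD2 at 6.22 (5.73 to 5.74), PBE1 at 5.85 (5.28 to 5.32), PBG1 at 6.34 (5.65 to 5.76) and RPN13 at 6.55 (6.12 to 6.18). Replicate 2 of amiNAA10 was high for RPT3 at 7.71 (7.01 to 7.13), RPT2A at 5.68 (5.23 to 5.26) and AT4G24820 at 7.97 (7.62 to 7.67), and replicate 1 was low for RPT6A at 4.39 (4.91 to 5.02). In the exon 1 line the single arrays were PBC2 at 4.56 (5.54 to 5.67) and RPN6 at 3.97 (4.22 to 4.26), both low, and RPN1B at 5.64 (5.30 to 5.32), EMB2719 at 6.90 (6.60 to 6.65) and RPN5A at 5.50 (5.18 to 5.20), all high. In WT, replicate 3 was low for PAB1 at 6.10 (6.20 to 6.22) and high for PBB2 at 4.99 (4.64 to 4.69) and RPN12A at 7.29 (7.06 to 7.10), and replicate 1 had the highest mean over the 52 loci at 5.56 (5.47 to 5.48).

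The difference of AT2G32730 between the HYPK lines and amiNAA10, -0.49 (limma adjusted p = 0.00498), is listed because a direct test between the mutants passed: all 8 HYPK arrays were below all 4 amiNAA10 arrays.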

How the results depend on the processing

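In the 24 alternative fits no called locus changed direction, and of 48 calls over all comparisons 18 were kept in every fit: 6 of 12 in amiNAA10, 8 of 14 in the HYPK lines, 3 of 13 in the exon 1 line, 0 of 8 in the exon 2 line and 1 of 1 between the HYPK lines and amiNAA10. Some of these fits leave out only an array of a group outside the comparison, which cannot change the difference. In the HYPK lines 2 loci were called lower instead of 1 without the dimmest 30% of probe sets and with array weights. In the exon 1 line 1 was called lower instead of 0 with only the groups compared. In the exon 2 line, calls higher and lower (6 and 2) became 0 and 0 with only the groups compared and 0 and 1 without replicate 2 of amiNAA10 and replicate 4 of the exon 2 line, a setting added after seeing the data; 2 rose with array weights and 1 fell with the intensity trend. The cause was not tested.

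Leaving out 1 array at a time gave 6 to 15 loci higher and 0 to 0 lower in amiNAA10, 8 to 14 and 1 to 2 in the HYPK lines, 3 to 13 and 0 to 1 in the exon 1 line, and 0 to 6 and 1 to 2 in the exon 2 line. The lowest counts came without replicate 2 of amiNAA10, replicate 4 of WT, replicate 2 of the exon 1 line and replicate 4 of the exon 2 line. The second lower call in the HYPK lines came without replicate 4 of the exon 1 line, replicate 1 of the exon 2 line or replicate 3 of WT. Between the HYPK lines and amiNAA10 it gave 0 to 0 higher and 1 to 2 lower, and between the insertion lines 0 to 0 in each direction. Medians ran from 0.13 to 0.24 in amiNAA10, 0.12 to 0.22 in the HYPK lines, 0.13 to 0.25 in the exon 1 line, 0.10 to 0.23 in the exon 2 line, -0.03 to 0.12 between the insertion lines and -0.07 to 0.06 between the HYPK lines and amiNAA10. Pairs past the exact test were 0 to 0 against WT in every line and 0 to 2 between the HYPK lines and amiNAA10. For single lines this says little: with 4 arrays against 3 the smallest p is 0.0286, which passes only if at least 12 pairs reach it. For the HYPK lines together, fewer arrays also raise the smallest p.

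The replicate numbers are shared by the genotypes but do not pair the samples: residuals of same-numbered arrays correlated between -0.29 and 0.30 (median -0.01). Different-numbered arrays correlated between -0.34 and 0.35 (median -0.02). Replicate 2 of amiNAA10 correlated at 0.30 with replicates 2 and 3 of the exon 1 line and at 0.34 with replicate 4 of the exon 2 line. These arrays had the highest means over the 52 loci within their lines. The part of such shared variation in the proteasome values was not tested. With a replicate block, 9 loci rose in amiNAA10, 8 in the exon 1 line and 3 in the exon 2 line. A paired test of the paralogue pairs was not run, since its smallest p with 4 pairs is 0.125.

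With 4 arrays per genotype, small differences lie within the error, and a missed threshold does not show that a locus is unchanged.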
